A study of Drosophila melanogaster with 30 samples.

Results

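The genes described here are 9 parts of the circadian clock of *Drosophila melanogaster*, namely *period* (*per*), *timeless* (*tim*), *Clock* (*Clk*), *cycle* (*cyc*), *vrille* (*vri*), *PAR-domain protein 1* (*Pdp1*), *cryptochrome* (*cry*), *clockwork orange* (*cwo*) and *Pigment-dispersing factor* (*Pdf*). They were found by these symbols among the 17471 genes of the count tables, and all 9 were among the 9240 genes with at least 1 CPM (reads of a gene scaled to a common library size) in at least 15 of the 30 libraries. RNA came from pooled whole heads of adult females, aged 3 to 7 days and dissected in the morning, from lines bred out of an outbred base that was itself intercrossed from *Drosophila* Genetic Reference Panel strains. Lines of the BUT+ and BUT- treatments had been selected in a T-maze for attraction to or aversion from 2,3-butanedione, those of the CYC+ and CYC- treatments likewise with cyclohexanone, and the control lines had passed through the maze without odor and without selection. Each of the 5 treatments had 3 replicate lines, and 2 pools of each line, called Rep1 and Rep2, gave 1 library each, 6 per treatment. The flies carried no transgene or engineered allele, and all treatments descend from the same base population, and within a line the effects of selection and of drift cannot be told apart. The question was whether the genes that peak in the evening and those that peak in the morning moved against each other between libraries. Over a whole day the 2 sets would do so, and pools taken at widely different times would show it. All heads were dissected in the morning, and within that part of the day both sets may move the same way. The relation therefore cannot decide whether pools differed by smaller shifts in time. By the study's methods, sample collection was randomized and spread over 5 days. The sources used here give no day or clock time for a library, so the values below could not be set against one.

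The fly clock runs on transcriptional feedback. CLK and CYC, a pair of bHLH-PAS proteins, bind E-boxes and switch on *per*, *tim*, *vri*, *Pdp1* and *cwo*, whose RNA is known to peak around the evening and early night. PER and TIM return to the nucleus and block CLK and CYC, while CWO competes for the E-boxes. In a further loop VRI represses and PDP1 activates *Clk*, and the RNAs of *Clk* and *cry* are highest around the end of the night and the morning. CRY is a blue-light receptor that acts on TIM, and PDF is the neuropeptide through which a few clock neurons signal to the others. The RNAs of *cyc* and *Pdf* are usually taken as not rhythmic. In whole heads, clock RNA comes largely from photoreceptors, glia and fat body, and brain clock neurons are few.

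In the release 6 assembly (BDGP6.54, annotated by Ensembl), *per* lies on chromosome X from 2685580 to 2692780, *tim* on 2L from 3493986 to 3508119 and *vri* on 2L from 5288944 to 5311223. On 3L are *Clk*, from 7763233 to 7775603, *Pdp1*, from 7811458 to 7867369, and *cyc*, from 19813770 to 19815938. On 3R are *cwo*, from 10388258 to 10400752, *cry*, from 19212154 to 19215442, and *Pdf*, from 26455462 to 26456141. Exons of the 9 genes hardly overlap those of other genes. The largest overlap was that of *per* with *dyw* on the opposite strand, 49 exon bases or 1.08% of its exon length, and *cry* shares 9 bases (0.475%) with *vib*.

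Library totals ranged from 21194086 to 38621924 counts, with medians of 27846591 in Rep1 and 35029659 in Rep2. The lowest count of any of the 9 genes was the 474 reads of *per* in 1 library. Markers of photoreceptors (8 genes) summed to between 53889 and 72373 CPM, with 7 of the 8 above 1 CPM in most libraries and *ninaA* listed at 0 throughout. The 6 neuronal markers summed to between 1790 and 3420 CPM, the 6 glial markers to between 2594 and 3253 CPM, and the 6 markers of head fat body to between 20437 and 107626 CPM. Midgut markers summed to at most 154 CPM, flight muscle markers to at most 11.6 CPM, the 3 ovary markers found to at most 4.28 CPM, and the male roX RNAs to at most 5.56 CPM. CYC+ line 1 Rep1 stood farthest from the other libraries, with a standard deviation of 0.48 in its log2 deviations from the median library, and had the lowest neuronal and glial sums. It also held the highest *cyc* and *cry* and the lowest *Clk* and *Pdp1* of all 30 libraries, so the correlations between members that were called, and the *cry* and *cyc* differences, are given with and without its line.

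All 9 genes were well expressed, and *tim* and *vri* varied most between libraries. *tim* ranged from 52.1 to 148 CPM (median 73.4, coefficient of variation 27.6%) and *vri* from 27.8 to 65.7 CPM (median 33.7, 25.1%), against a median coefficient of variation of 10.7% over all genes tested. *Clk* varied least, from 52.2 to 75.5 CPM (median 64.1, 7.0%), followed by *cyc*, from 29.5 to 44.0 CPM (median 33.2, 8.66%). The activator pair was thus the steadiest part of the set, while the inhibitor *tim* and the repressor *vri* had the widest spread. The inhibitor *per* lay between them, from 19.7 to 38.3 CPM (median 25.6, 14.3%). The bZIP activator *Pdp1* ranged from 199 to 403 CPM (median 307), the photoreceptor protein gene *cry* from 259 to 492 CPM (median 324), the bHLH repressor *cwo* from 56.9 to 87.4 CPM (median 66.9) and the neuropeptide gene *Pdf* from 38.7 to 73.1 CPM (median 52.0). In bulk RNA, a lower value can mean fewer cells of a type or less RNA per cell, and these cannot be told apart here.

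Per kilobase of exon, *cry* had the highest level, with a median of 171 CPM per kb (136.7 to 260), above *Pdf* with 76.5 CPM per kb (56.9 to 108). *Pdp1* (25.3, from 16.4 to 33.2 CPM per kb) and *cyc* (20.4, from 18.2 to 27.1 CPM per kb) came next with overlapping ranges. *Clk* (14.2, from 11.6 to 16.7 CPM per kb), *cwo* (13.1, from 11.2 to 17.2 CPM per kb) and *tim* (10.4, from 7.40 to 21.0 CPM per kb) also overlapped. *vri* (7.12, from 5.86 to 13.9 CPM per kb) and *per* (5.66, from 4.35 to 8.47 CPM per kb) were the lowest. Neighbors in this order did not differ beyond their spread over libraries, except *cry* above *Pdf*, *Pdf* above *Pdp1* and *cyc* above *Clk*, whose ranges did not overlap.

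**Figure D1:**
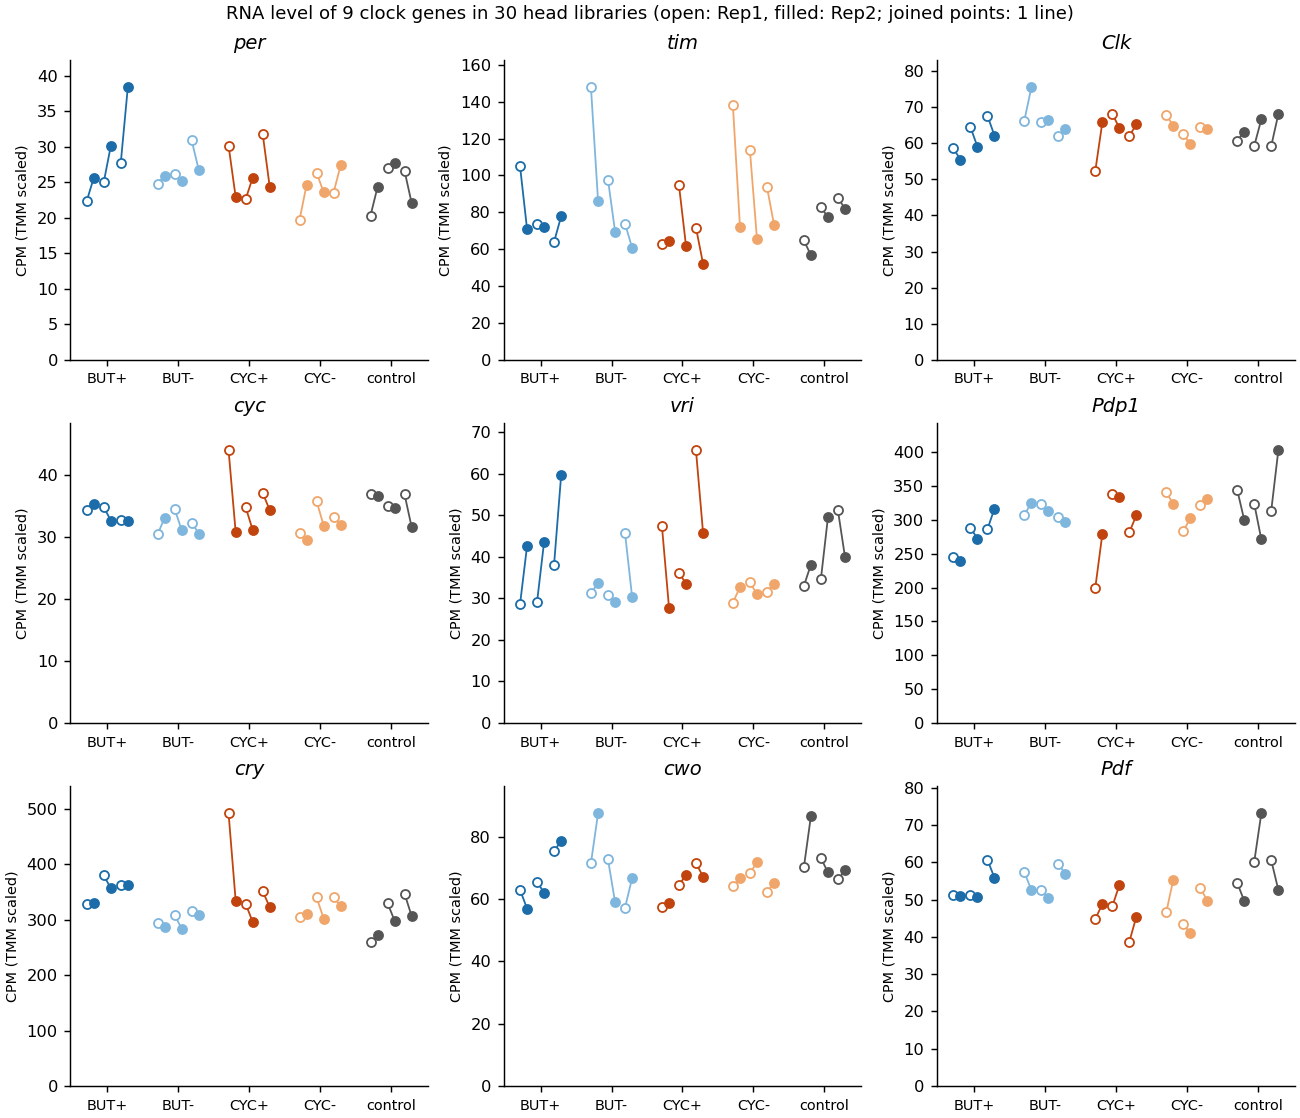
Level of each clock gene in CPM (TMM scaled, axis from 0) in the 30 libraries, by treatment. Open points are Rep1 and filled points Rep2 of a line, joined by a line. *tim* is lower in Rep2 in 13 of 15 lines and *vri* is higher in Rep2 in all 3 BUT+ lines and lower in all 3 CYC+ lines, while *Clk* stays between 52.2 and 75.5 CPM.

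To see whether libraries lay at different phases, the mean log2 CPM of *Clk* and *cry* was subtracted from that of *per*, *tim*, *vri*, *Pdp1* and *cwo*. This evening minus morning index lay between -1.35 and -0.82 in all 30 libraries (median -1.07, SD 0.13), below 0 in each, and it is a description with no test. Its sign depends on the levels of the genes, among them the high level of *cry*, and does not give a phase. Only differences of the index between libraries bear on the question. The 6 control libraries held the narrowest range, from -0.99 to -0.92 with a median of -0.97. CYC- libraries lay between -1.13 and -1.01 (median -1.08) and BUT- libraries between -1.16 and -0.88 (median -1.0). BUT+ libraries spanned -1.31 to -0.82 (median -1.11) and CYC+ libraries -1.35 to -0.91 (median -1.12). The CYC- and control ranges did not overlap, and every other pair of treatments overlapped. Rep2 was lower than Rep1 in 8 lines and higher in 7, with a mean difference of -0.01 (SD 0.16, n = 15 lines). Over all lines the index thus did not separate Rep1 from Rep2, but shifts within treatments went opposite ways. Rep2 was higher in each BUT+ line, by 0.04, 0.24 and 0.38. In each BUT- line it was lower, with differences of -0.12, -0.13 and -0.18. Differences had both signs in CYC+ (-0.01, 0.02 and -0.24), CYC- (-0.07, -0.07 and 0.05) and the control (0.01, 0.01 and -0.07). This variation among treatments was not tested.

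Phase was then examined gene by gene, in the Rep2 minus Rep1 difference of log2 CPM within each of the 15 lines. This removes line and treatment means, but not a Rep difference that varies with treatment. Treatment means of the difference were 0.60 in BUT+ and -0.47 in CYC+ for *vri*, and 0.31 and -0.20 for *per*. The permutations exchange all 15 lines freely, so their p-values do not allow for lines that go together by treatment. The clearest relation was between *per* and *vri*, both targets of CLK and CYC. Their differences had the same sign in 14 of 15 lines, with Pearson's r = 0.85 (permutation p = 6.0e-05, adjusted p = 0.00216 over the 36 pairs of 9 genes) and Spearman's rho = 0.86 (permutation p = 7.0e-05, adjusted p = 0.00252). The *per* difference ran from -0.39 in CYC+ line 1 to 0.47 in BUT+ line 3, and the *vri* difference from -0.77 to 0.65 in the same 2 lines. Without the 2 lines farthest from the median of *per*, CYC+ lines 1 and 3, r was 0.77 (permutation p = 0.00245). Across all 30 libraries with treatment means removed r was 0.80, and across the 15 line means 0.72. Of the 9238 other genes tested, 1 was more closely correlated with *per* than *vri* was, and 4 were more closely correlated with *vri* than *per* was, a rank across genes that are not independent of each other.

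*tim*, which is switched on by the same activators as *per* and *vri*, did not move with either. The correlation of its difference was 0.01 with *per* (permutation p = 0.959, adjusted p = 0.959) and 0.10 with *vri* (permutation p = 0.729, adjusted p = 0.847), with Spearman's rho of -0.03 and 0.14. *tim* and *per* had the same sign in 6 of 15 lines. With *Pdp1* and *cwo*, the other E-box genes, *tim* gave r = 0.24 and r = -0.05, neither past the threshold (adjusted permutation p = 0.695 and 0.901). None of the 8 pairs that hold *tim* had an adjusted permutation p under 0.05, and their r ran from -0.26 with *cyc* to 0.24 with *Pdp1*. The evening genes thus did not move as 1 group between the pools of a line.

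With the evening gene *Pdp1*, *per* and *vri* gave negative values, r = -0.55 and r = -0.59, neither past the threshold over 36 pairs (adjusted permutation p = 0.0883 and 0.0594). The counts are per gene, so whether all transcripts of *Pdp1* share an evening rhythm cannot be read from them. Between the morning genes, *Clk* and *cry* gave r = -0.61 (permutation p = 0.0144, adjusted p = 0.0518), falling to -0.07 without CYC+ line 1 and control line 3. *per* correlated with *Clk* at r = -0.67 (permutation p = 0.00649, adjusted p = 0.0417; rho = -0.72) and with *cry* at r = 0.66 (permutation p = 0.00214, adjusted p = 0.0219; rho = 0.70). The 2 morning genes therefore lay on opposite sides of *per*. The *per* and *Clk* relation had r = -0.57 (permutation p = 0.0432) without CYC+ lines 1 and 3, but r = -0.29 over the 30 libraries and r = 0.11 over the line means. *per* and *cry* gave r = 0.61 without these lines, r = 0.50 over the 30 libraries and r = 0.56 over line means. Without CYC+ line 1 alone, r was -0.56 for *per* with *Clk* and 0.60 for *per* with *cry*.

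*cry* correlated most closely with *cyc*, the partner of CLK, at r = 0.89 (permutation p = 3.9e-04, adjusted p = 0.00702; rho = 0.79), and at r = 0.75 (permutation p = 0.00401) without BUT- line 1 and CYC+ line 1. *cyc* rose and fell with *vri* (r = 0.68, adjusted permutation p = 0.0219) and *per* (r = 0.61, adjusted permutation p = 0.0431), and *vri* with *cry* (r = 0.59, adjusted permutation p = 0.0444). *Pdp1* ran against *cry* (r = -0.69) and *cyc* (r = -0.68), both with an adjusted permutation p of 0.0417. In all, 9 of 36 pairs had an adjusted p under 0.05, 6 positive and 3 negative, and 5 pairs by Spearman's rho. Leaving out CYC+ line 1 left 1 pair, *per* with *vri* (adjusted permutation p = 0.0187), so the call of the other 8 rests on that line at this number of lines. Without that line, r was 0.66 for *cyc* with *cry*, 0.55 for *cyc* with *vri*, 0.48 for *per* with *cyc* and 0.38 for *vri* with *cry*. The values of *Pdp1* shrank to -0.36 with *cry* and -0.37 with *cyc*, and that with *cry* to -0.16 when control line 3 was left out too. For *per* with *vri*, r was 0.82 without CYC+ line 1. Without BUT+ line 1 there were 2 pairs past the threshold, without CYC- line 1 there were 3, and without control line 3 there were 4. Redrawing the permutations with 10 other seeds left these counts and the 9 of all lines as they were, but gave 4 to 7 pairs without CYC- line 3, 5 to 8 without CYC- line 2 and 5 to 6 without control line 1. *cwo* and *Pdf* were in none of the 9 pairs.

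**Figure D2:**
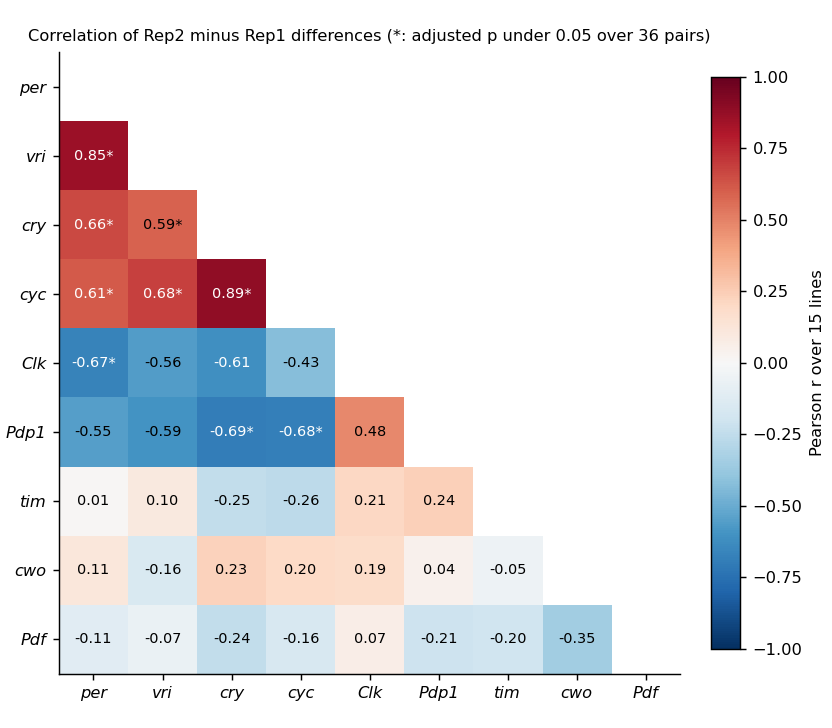
Pearson's r of the Rep2 minus Rep1 differences in log2 CPM for each of the 36 pairs of clock genes, over 15 lines. Red is positive, blue is negative, and an asterisk marks an adjusted permutation p under 0.05. *per*, *vri*, *cry* and *cyc* form a positive block up to 0.89, *Clk* and *Pdp1* are negative against it, and the row of *tim* stays between -0.26 and 0.24.

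Outside the clock set, the index itself was most closely followed by *CG31728*, *CG14613*, *Glg1*, *CG5359*, *mor*, *CG4617*, *CG17186* and *CG18789*, with r from 0.69 down to 0.64 over the 15 within-line differences. The most negative were *CG1208*, *CG17026*, *Chrac-14*, *CG6972*, *CG11586*, *Dtd*, *PIG-O* and *Spn42Db*, with r from -0.79 to -0.65. *mor* encodes a subunit of the Brahma chromatin remodeling complex and *Chrac-14* a histone-fold protein of another such complex. These 16 genes are given as a description of likeness, with no test.

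The comparison of Rep2 with Rep1 within lines was led by *tim*. Its level in the 15 Rep1 libraries had a lowest value of 63.0 CPM, a median of 87.8 and a highest of 148, and in the 15 Rep2 libraries 52.1, 70.8 and 86.2. The ranges overlapped, but Rep2 was lower in 13 of 15 lines. The log2 difference was -0.36 (SE 0.08, adjusted p = 0.00543, from edgeR's quasi-likelihood F test after Benjamini and Hochberg), and *tim* passed the threshold of 0.1 without any 1 of the 15 lines (adjusted p at most 0.0133). By treatment the mean difference of 3 lines was -0.70 in CYC-, -0.52 in BUT-, -0.35 in CYC+, -0.13 in the control and -0.11 in BUT+. The 2 lines in which *tim* was higher in Rep2 were BUT+ line 3, by 0.28, and CYC+ line 1, by 0.03.

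*cry* and *cyc* were also lower in Rep2, by little. *cry* had a Rep1 median of 330.0 CPM (259 to 492) and a Rep2 median of 309 CPM (273 to 363), and was lower in 11 of 15 lines, with a log2 difference of -0.11 (SE 0.04, adjusted p = 0.0604 by edgeR's quasi-likelihood test). *cyc* had medians of 34.9 CPM (30.5 to 44.0) and 32.0 CPM (29.5 to 36.7), and was lower in 13 of 15 lines, with a log2 difference of -0.10 (SE 0.04, adjusted p = 0.0699 by the same edgeR test). Both groups of libraries overlapped widely for both genes. In CYC+ the mean difference was -0.28 for *cry* and -0.26 for *cyc*, and in the other treatments it lay between -0.08 and -0.03 and between -0.09 and -0.02. *cyc* missed the threshold when any 1 of BUT+ line 2, BUT- line 2, CYC+ line 2, CYC- line 2 or control line 3 was left out (edgeR adjusted p between 0.108 and 0.116), and with no low-count filter (edgeR adjusted p = 0.114). Without CYC+ line 1 both genes stayed past the threshold, with smaller log2 differences of -0.07 (edgeR adjusted p = 0.0531) for *cry* and -0.07 (edgeR adjusted p = 0.0884) for *cyc*. The count of 3 of 9 genes lower in Rep2 stands beside 13.7% of all genes tested that were called lower in Rep2, and 0 of the 9 were called higher, beside 12.1% of all genes tested.

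The remaining members did not pass this test, and their differences were centered near 0. The log2 difference was 0.04 (SE 0.06) for *per*, 0.03 (SE 0.03) for *Clk*, 0.02 (SE 0.11) for *vri*, 0.04 (SE 0.05) for *Pdp1*, 0.03 (SE 0.04) for *cwo* and 0.01 (SE 0.04) for *Pdf*. Their line-by-line differences were as wide as those of *tim* in the case of *vri*, with an SD of 0.45 over 15 lines against 0.35 for *tim*. The evening gene *tim* and the morning gene *cry* thus shifted the same way between Rep1 and Rep2, and *per* and *vri* did not shift on average. With all heads dissected in the morning, these directions cannot decide whether collection time differed.

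**Figure D3:**
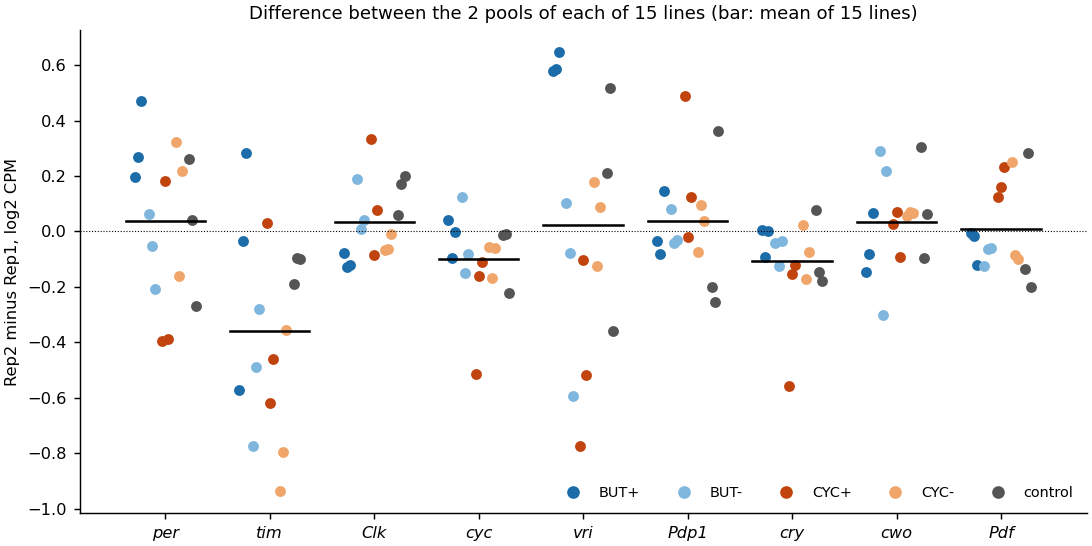
Rep2 minus Rep1 difference in log2 CPM for each clock gene, with 1 point per line colored by treatment and a bar at the mean of 15 lines. *tim* has its mean at -0.36 with 13 points below 0, *vri* spreads from -0.77 to 0.65 around a mean of 0.02, and CYC+ line 1 holds the lowest points of *cyc* and *cry* and the highest of *Clk* and *Pdp1*.

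For *vri* the direction of the Rep difference was the same in all 3 lines of BUT+ and in all 3 of CYC+, but mixed within the other treatments. In BUT+ lines 1, 2 and 3, Rep2 was higher by 0.58, 0.59 and 0.65 on the log2 scale. In CYC+ lines 1, 2 and 3 it was lower, with differences of -0.77, -0.10 and -0.52. The BUT- lines gave 0.10, -0.08 and -0.59, the CYC- lines 0.18, -0.13 and 0.09, and the control lines 0.21, 0.52 and -0.36. The 3 BUT+ lines were all above every other line. The test of whether the Rep difference varied among treatments was past the threshold for *vri* alone (adjusted p = 0.0651, edgeR quasi-likelihood), 1 of 9 genes beside 5.62% of all genes tested. The mean difference of *per* was also highest in BUT+, at 0.31, and lowest in CYC+, at -0.20, without passing (adjusted p = 0.372, edgeR). The call for *vri* was lost without any 1 of the 3 BUT+ lines (edgeR adjusted p between 0.160 and 0.181), without CYC+ line 1 (0.130) and, narrowly, without BUT- line 2, CYC+ line 3 or CYC- line 1 (0.102, 0.106 and 0.10).

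Library makeup and depth moved with 3 of the genes. The summed level of the head fat body list fell from a median of 73398 CPM in Rep1 to 47075 CPM in Rep2, and its mean log2 level was lower in Rep2 in 15 of 15 lines, by between 0.07 and 2.64. Unlike the sum, this mean gives each gene of the list the same weight. One of them, *Lsp2*, was low, from 0 to 60.7 CPM with a median of 7.23, and its part in the mean was not tested. Across lines the Rep2 minus Rep1 difference of this mean correlated with the difference of *tim* at r = 0.73 (permutation p = 0.00218, adjusted p = 0.0327 over 45 relations of 9 genes with 4 marker lists and depth) and rho = 0.70 (adjusted permutation p = 0.0934), and at r = 0.56 (permutation p = 0.0483) without CYC- lines 1 and 2. By treatment, the median fat body sum and the median *tim* level were 89414 and 72.8 CPM in BUT+, 76127 and 80.0 CPM in BUT-, 52329 and 79.7 CPM in the control, 48934 and 83.5 CPM in CYC-, and 33005 and 63.7 CPM in CYC+. CYC+ was lowest in both, and the highest fat body sum was in BUT+ and the highest *tim* in CYC-. The part of fat body RNA in the *tim* difference was not tested.

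*Pdp1* correlated with the neuronal markers at r = 0.83 (permutation p = 1.8e-04, adjusted p = 0.00405; rho = 0.69), and at r = 0.60 (permutation p = 0.0270) without CYC+ line 1 and control line 2. *Pdf* correlated with none of the marker lists past the threshold but with sequencing depth, at r = 0.85 between the differences in *Pdf* and in log2 total counts (permutation p = 5.0e-05, adjusted p = 0.00225; rho = 0.79), and at r = 0.79 (permutation p = 0.00086) without CYC+ line 1 and control line 2. The part of depth in the levels of *Pdf* was not tested. The differences of *cry* and *cyc* went with those of 79 ribosomal protein genes (symbols starting with RpL or RpS), a set looked up after the values were seen, with a median r over these genes of 0.82 and 0.77, and those of *Clk* and *Pdp1* against it, with -0.56 and -0.76. Without CYC+ line 1 these medians were 0.41, 0.36, -0.15 and -0.54. For *vri* and *per* the median r was 0.52 and 0.48, and 0.24 and 0.22 without that line, and for *tim* it was -0.12 and 0.25. The part of the ribosomal protein genes in the relation of *per* with *vri* was not tested.

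**Figure D4:**
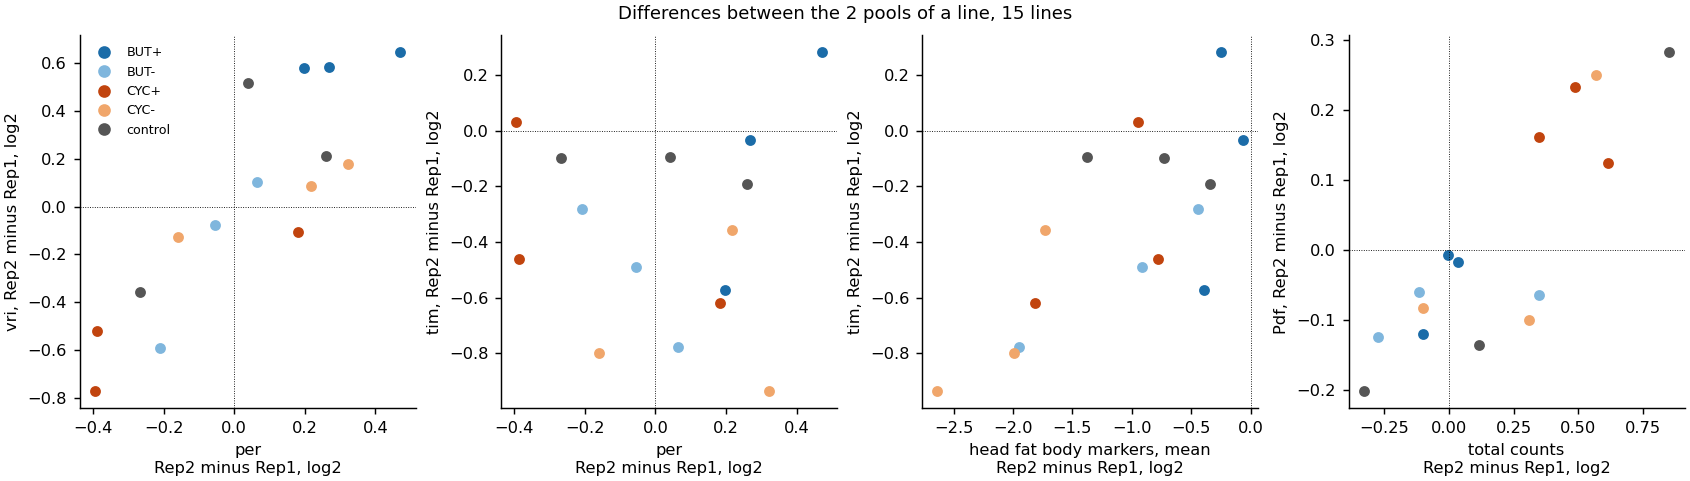
Rep2 minus Rep1 differences on the log2 scale, 1 point per line colored by treatment. From left to right, *vri* rises with *per* (r = 0.85), *tim* does not follow *per* (r = 0.01), *tim* follows the mean of the head fat body markers (r = 0.73), and *Pdf* follows the total count of the library (r = 0.85).

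Between treatments, *Pdf* was the only member called in the 6 comparisons. The median absolute log2 difference of the 9 genes lay between 0.09 in BUT- against the control and 0.15 in CYC+ against the control, and was above that of all genes tested (0.07 to 0.09) in each of the 6. In Rep2 against Rep1 it was below, at 0.04 beside 0.06. The set holds *tim* and *vri*, whose coefficients of variation exceeded those of 92.3% and 90.3% of the genes tested. *Pdf* in the 6 control libraries had a lowest value of 49.6 CPM, a median of 57.3 and a highest of 73.1, in the CYC+ libraries 38.7, 46.8 and 53.9, and in the CYC- libraries 41.0, 48.1 and 55.4. The groups overlapped in part, and 3 control libraries, line 2 Rep1 and Rep2 (60.1 and 73.1 CPM) and line 3 Rep1 (60.6 CPM), lay above every CYC+ and CYC- library. Line means were 52.1, 66.6 and 56.6 CPM in the control, 46.8, 51.1 and 42.1 in CYC+ and 51.0, 42.2 and 51.4 in CYC-, so that the 3 lines of each CYC treatment lay below the lowest control line. This did not set them apart from all BUT lines, whose means were 51.2, 51.1 and 58.3 CPM in BUT+ and 55.0, 51.5 and 58.2 CPM in BUT-. Lines 1 and 2 of BUT+ and line 2 of BUT- thus also lay below the lowest control line. Against the control, the log2 difference of *Pdf* was -0.33 in CYC+ (SE 0.08, adjusted p = 0.0311 by edgeR's quasi-likelihood test) and -0.28 in CYC- (SE 0.08, adjusted p = 0.0892 by the same edgeR test). These counts of 1 in 9 stand beside 3.73% of all genes tested called lower in CYC+ (7.02% in either direction) and 2.32% called lower in CYC- (3.74% in either direction). The 2 comparisons share the control libraries. Both calls were lost without control line 2 (log2 differences of -0.22 and -0.17, edgeR adjusted p = 0.148 and 0.376), that for CYC+ without CYC+ line 3 (-0.26, edgeR adjusted p = 0.119), and both when the 2 libraries of a line were summed (edgeR adjusted p = 0.169 and 0.291). The call for CYC- was also lost without any 1 of BUT+ lines 1 and 2, BUT- lines 2 and 3, CYC- lines 1 and 2 or control line 3 (edgeR adjusted p between 0.10 and 0.375).

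In BUT+ *Pdf* had values of 50.8, 51.4 and 60.7 CPM (lowest, median and highest) and in BUT- 50.3, 54.8 and 59.4 CPM, inside the control range, with log2 differences from the control of -0.13 (SE 0.08) and -0.09 (SE 0.08). None of the 9 genes was called in BUT+ against the control, where 2.99% of all genes tested were called, in BUT- against the control (4.70%), in BUT+ against BUT- (0.660%) or in CYC+ against CYC- (1.54%). At an unadjusted edgeR p under 0.05 there were 2, 1, 2 and 3 members in these comparisons, beside 14.7%, 16.2%, 9.89% and 14.7% of all genes tested.

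**Figure D5:**
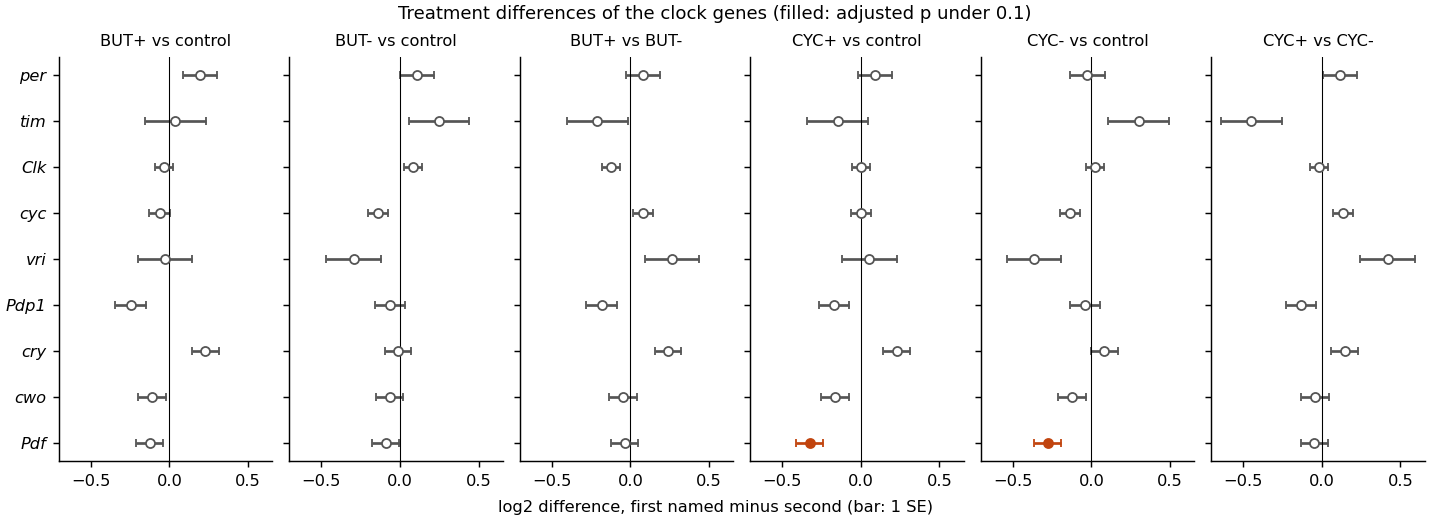
Log2 difference of each clock gene in the 6 treatment comparisons, first named minus second, with a bar of 1 SE from the edgeR fit. Filled points have an adjusted p under 0.1, which are *Pdf* in CYC+ (-0.33) and CYC- (-0.28) against the control. Those for *tim* and *vri* have the widest bars, up to 0.19 and 0.17.

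The test for any difference among the 5 treatments called *Pdf* (adjusted p = 0.0356) and *cry* (adjusted p = 0.079, edgeR quasi-likelihood), 2 of 9 genes beside 19.3% of all genes tested. *cry* had a lowest, median and highest value of 329, 360.0 and 380.3 CPM in BUT+, 283, 302 and 316 CPM in BUT-, 296, 332 and 492 CPM in CYC+, 302, 317 and 341 CPM in CYC- and 259, 302 and 347 CPM in the control. The BUT+ libraries lay above all BUT- libraries and overlapped the control. In single comparisons *cry* was not called, with log2 differences of 0.23 (SE 0.09) in BUT+ and 0.23 (SE 0.09) in CYC+ against the control and 0.24 (SE 0.09) in BUT+ against BUT- (edgeR adjusted p = 0.192, 0.128 and 0.299). Other settings changed this, since *cry* was called in CYC+ against the control with the Rep number as a block or with DESeq2, and in BUT+ against the control and against BUT- with only the 12 libraries compared. Its call among 5 treatments was lost without BUT+ line 2 or 3, any BUT- line or control line 1 (edgeR adjusted p between 0.101 and 0.160). Without the library CYC+ line 1 Rep1, left out after the data had been seen, *cry* and *Pdp1* were called in BUT+ against the control and *cry* in BUT+ against BUT-. Without CYC+ line 2, *Pdp1* and *cry* joined *Pdf* in CYC+ against the control.

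The 2 most variable genes had the largest differences and the largest errors. *tim* had a lowest, median and highest level of 52.1, 63.7 and 94.8 CPM in CYC+ and 65.4, 83.5 and 138 CPM in CYC-, and *vri* 27.8, 40.9 and 65.7 CPM in CYC+ and 28.9, 32.2 and 33.8 CPM in CYC-. Between these treatments the log2 difference was -0.45 (SE 0.19) for *tim* and 0.42 (SE 0.17) for *vri*, in opposite directions and neither past the threshold (edgeR adjusted p = 0.278 and 0.259). The *vri* level was nearly constant in CYC-, where 3 line means lay at 30.8, 32.4 and 32.6 CPM, and spread in CYC+, at 37.6, 34.9 and 55.7 CPM. Against the control, *tim* gave log2 differences between -0.15 in CYC+ and 0.30 in CYC-, and *vri* between -0.36 in CYC- and 0.05 in CYC+. *per* had medians between 24.1 CPM in CYC- and 26.6 CPM in BUT+, *Clk* between 60.6 CPM in BUT+ and 66.1 CPM in BUT-, *cyc* between 31.7 CPM in BUT- and 35.8 CPM in the control, *Pdp1* between 279 CPM in BUT+ and 323 CPM in CYC-, and *cwo* between 64.2 CPM in BUT+ and 69.6 CPM in the control. For these 5 genes the treatments overlapped and no comparison was called by edgeR.

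Lines of the same treatment were compared in 1 test per gene over the 15 line means. None of the 9 genes was called, beside 7.99% of all genes tested, and 3 had an unadjusted edgeR p under 0.05, namely *cwo*, *Pdf* and *Pdp1* (edgeR adjusted p = 0.119, 0.122 and 0.222), beside 18.1% of all genes tested. *cwo* line means ran from 61.9 to 79.5 CPM in BUT- and from 59.9 to 77.0 CPM in BUT+, and *Pdp1* line means from 239 to 336 CPM in CYC+. *tim* had line means of 117, 83.6 and 67.3 CPM in BUT- and was not called (adjusted p = 0.597, edgeR). Its Rep1 and Rep2 pools there were 148 and 86.2 CPM in line 1, 97.7 and 69.6 in line 2, and 73.8 and 60.8 in line 3. This test had no term for the Rep number, so the lower *tim* of Rep2 counted as spread within lines. *cwo* was called without BUT- line 2 or control line 1, and *Pdf* without CYC+ line 1 or control line 3.

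Other genes of the clock pathway were taken from 3 lists. Of 14 kinase, phosphatase and protein turnover genes, all tested, 2 were called in CYC+ against the control (7.02% of all genes tested), *wdb*, a regulatory subunit of protein phosphatase PP2A, at -0.20 (SE 0.06, edgeR adjusted p = 0.0541) and *jet*, an F-box protein that acts in the light-driven loss of TIM, at 0.17 (SE 0.05, edgeR adjusted p = 0.0618). None was called in the other 5 comparisons, beside 0.660% to 4.70% of all genes tested. The test among treatments called 1 (*jet*, edgeR adjusted p = 0.0174), beside 19.3% of all genes tested. In Rep2 against Rep1 1 of the 14 was called, the ubiquitin protease *Usp8*, higher by 0.10 (edgeR adjusted p = 0.0534), beside 12.1% of all genes tested called higher. The median log2 difference of the list in CYC+ against the control was -0.05, beside 0.01 over all genes tested.

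Of 10 regulators of transcription and translation, *kay*, the fly Fos, was lower than the control in all 4 selected treatments, by -0.21 in BUT+, -0.15 in BUT-, -0.13 in CYC+ and -0.19 in CYC- (SE 0.04 each, edgeR adjusted p = 0.00752, 0.0511, 0.0806 and 0.0121). These comparisons share the control libraries. *lark*, an RNA-binding protein of the clock output, was higher in CYC+ and CYC- by 0.20 and 0.21 (SE 0.05 each, edgeR adjusted p = 0.0364 and 0.0428), and *nej*, the fly CBP, was lower in CYC+ by a log2 difference of -0.29 (SE 0.10, edgeR adjusted p = 0.0866). In CYC+ against the control 3 of the 10 were thus called, beside 7.02% of all genes tested, in CYC- 2 (3.74%), and in BUT+ and BUT- 1 each (2.99% and 4.70%). The test among treatments called 3 of the 10, beside 19.3% of all genes tested, *kay*, *lark* and *tyf*, the last a translational activator of *per* (edgeR adjusted p = 0.00673, 0.0269 and 0.0639). *Atx2*, the partner of *tyf*, was the 1 gene of the 10 called in Rep2 against Rep1, higher by 0.10 (edgeR adjusted p = 0.0635). Of all genes tested, 12.1% were called higher in Rep2.

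Of 20 output and neuropeptide genes, 19 were matched and tested. *Pdfr*, which encodes the receptor of PDF, exceeded the control in BUT- by 0.40 (SE 0.08, edgeR adjusted p = 0.00783). It was the only one of the 19 called in the 6 comparisons. Of all genes tested, 4.70% were called in BUT- against the control and 0.660% to 7.02% over the 6. Among treatments *Pdfr* and *Dh31-R* were called (edgeR adjusted p = 0.0172 and 0.0809), 2 of 19 beside 19.3% of all genes tested. *Pdf* itself was not called in BUT-, and *Pdfr* was not called in CYC+ or CYC-, where *Pdf* was. Whether these effects differ between treatments was not tested. *ebony* (*e*) was the 1 gene of the 19 called in Rep2 against Rep1, higher by 0.11 (SE 0.04, edgeR adjusted p = 0.0519), beside 12.1% of all genes tested called higher. Of the genes in the 3 lists none was called lower in Rep2, beside 13.7% of all genes tested. Between lines within treatments, 4 of the 19 were called, beside 7.99% of all genes tested, namely *Hug*, *Pdfr*, *CCHa1* and *Dh44* (edgeR adjusted p = 0.00849, 0.00853, 0.0545 and 0.0937), and none of the other lists. *takeout* (*to*), a clock output gene, and *Ugt35B1* were called for a Rep difference that varied among treatments (edgeR adjusted p = 0.00797 and 0.0882), as *vri* was. These were 2 of the 19, beside 5.62% of all genes tested, and none of the other lists was called.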

How the data were processed

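Gene expression was measured in 30 head libraries, 6 for each of 5 treatments. The authors deposited raw read counts for each gene, made after trimming with Trim Galore and cutadapt and alignment with STAR to the release 6 genome. The counting tool, strand setting and treatment of multiply mapped reads are not given in the sources used here. Groups, lines and Rep numbers came from the sample labels. Counts were scaled by TMM and tested with edgeR 4.0.16 (quasi-likelihood, Benjamini-Hochberg adjustment, adjusted p under 0.1) in R 4.3.3, over 9240 genes with 1 CPM in at least 15 of 30 libraries, with lines pooled as in the study's methods. Standard errors are the log2 difference over the square root of F. Rep2 was compared with Rep1 with line in the fit. Correlations used log2 CPM (prior count 2), 15 within-line differences and 100000 permutations, two-sided. The 2 pools of a line share their population, so p-values of pooled lines treat them as separate. Totals were 21194086 to 38621924 counts. The fit was run on simulated counts, drawn independently for each library with no difference between lines. The simulation therefore does not cover the dependence between pools of a line. Alternatives used DESeq2 1.42.0 (a likelihood ratio test for the 5 treatments), limma 3.58.1, other filters, scalings and subsets. Named genes are the 9 members, up to 4 called genes of each of 3 clock lists (smallest adjusted p in the treatment and Rep tests), and the 16 genes most and least like the index; *nej*, *to*, *Ugt35B1*, *Hug*, *CCHa1* and *Dh44* were added after their values were seen. The members, lists and markers were chosen with earlier results of these data known. Plots used matplotlib in Python.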

Additional observations from a re-analysis of the deposited data

Results flagged for a closer look

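In 6 of the 45 sets of 6 libraries (9 genes in 5 treatments), 1 library lay apart from the rest, its gap to the nearest one, over the range, exceeding Dixon's critical value. Chance flags about 1 in 20 sets. *per* was 30.9 CPM in BUT- line 3 Rep1, where the next highest was 26.7 CPM, and in the same library *vri* was 45.8 CPM against 33.6 CPM. *tim* was 105 CPM in BUT+ line 1 Rep1 against 77.8 CPM, and *Clk* was 75.5 CPM in BUT- line 1 Rep2 against 66.4 CPM. *cry* was 492 CPM in CYC+ line 1 Rep1 against 352 CPM, and *cwo* was 86.6 CPM in control line 1 Rep2 against 73.1 CPM. All 6 were the highest of their set.

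The Rep2 minus Rep1 difference of *vri* varied among treatments (adjusted p = 0.0651 by edgeR's quasi-likelihood test), with all 3 BUT+ lines above 0 and all 3 CYC+ lines below. What sets Rep1 and Rep2 apart is not given in the labels.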

How the results depend on the processing

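Of the 9 genes, 0 were called in BUT- against the control and in CYC+ against CYC- under all 28 alternatives. In BUT+ against the control the count rose from 0 to 1 with only the 12 libraries compared and to 2 without library CYC+ line 1 Rep1 (an alternative chosen after seeing the data), with 0 to 2 when each line was left out, and against BUT- to 1 in both, with 0 to 1. In CYC+ against the control, the count of 1 became 0 with only 12 libraries, with libraries of a line summed and with Rep2 libraries alone, 2 with DESeq2 (*cry* and *Pdf*), and 0 to 3 on leaving out lines. In CYC- against the control it became 0 with no low-count filter, with 12 libraries, summed libraries, limma-voom, Rep1 or Rep2 libraries alone, and at 0.05, and 0 to 1 on leaving out lines. Among 5 treatments, 2 became 0 with summed libraries or Rep1 alone, 1 with limma-voom or at 0.05 (*Pdf*), 1 with Rep2 alone (*vri*, with *Pdf* and *cry* both lost), and 1 to 3 on leaving out lines. With the Rep number as a replicate block, CYC+ against the control gave 2 calls (*cry* and *Pdf*), and no other count changed. Same-numbered groups of 2 treatments correlated at 0.016 to 0.77 in their deviations (mean 0.36), above 0.1 in 8 of 10 pairs, and 25.8% of all genes were called between Rep2 and Rep1. Many genes thus differed between Rep numbers, but the labels do not say what a number shares and 2 pairs were not above 0.1, so the numbers were not taken as pairing the samples. In Rep2 against Rep1, 3 became 1 at 0.05 (*tim*), 2 with treatment in place of line in the fit (*tim* and *cyc*), and 2 with no low-count filter (*tim* and *cry*). The *vri* call by treatment gave 0 to 1 on leaving out lines, and lines within treatments 0 to 1. Correlated pairs fell from 9 to 5 by Spearman's rho, and to between 1 and 11 on leaving out lines. The random seeds of these leave-one-line-out permutations were changed once after the values were seen; over 10 further seeds, chosen after seeing the data, 12 of the 16 counts did not move. Over line means, *per* with *Clk* (r = 0.11), *per* with *cyc* (r = -0.052) and *cyc* with *vri* (r = -0.16) reversed, and *per* with *vri* held under all 21 alternatives (0.72 to 0.90). The range of the index widened from 0.53 to 0.69 without *Pdp1* and *cwo*. The cause of these changes was not tested. With 2 pools per line, 3 lines per treatment and no clock time, small shifts in phase are not detectable here.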
